A study of Mus musculus with 22 samples.

Results

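The miR-146 family was examined through the probes for its mature guide strands, mmu-miR-146a and mmu-miR-146b, which were chosen by name, with earlier results of these data known. They were 2 of the 626 probes of the NanoString nCounter panel, of which all but 60 read mouse miRNAs, and the star strands were not included. Each probe was read in all 22 samples. The tissues were control fallopian tube (CT, n = 5), doxycycline-induced fallopian tube (FT, n = 5) and metastatic tumor (M, n = 5), and plasma was taken from control mice (CS, n = 3) and from mice with tumors (TS, n = 4). The series compared induced tubes and metastases with control tubes, and tumor plasma with control plasma, in mice that model high-grade serous carcinoma arising in the tube.

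All the mice carried floxed Brca1 or Brca2 among other engineered alleles, which are not described here, and a Pax8-driven, doxycycline-inducible Cre that deletes the floxed alleles. In CT the alleles were uninduced, with Brca1 fl/fl, Brca1 fl/+, Brca2 fl/fl or Brca2 fl/+. In FT the Brca genotypes after induction were Brca1 -/- (FT2), Brca2 -/- (FT4) and Brca2 -/+ (FT1, FT3 and FT5). In M they were Brca2 -/- (M1 and M3), Brca1 -/+ (M2 and M6) and Brca2 -/+ (M4). The other alleles also differed between samples of a group. M6 was an ovarian metastatic tumor in the study's sample list, and the others were peritoneal metastases. Cre acts in Pax8-expressing cells, whereas the RNA came from whole tissue, so fewer cells of a type and less RNA per cell cannot be told apart. TS carried both plasma and serum in its labels, and is called plasma here. Plasma and tube were taken from the same mouse in TS1 and FT2, TS2 and FT3, TS3 and FT4, TS4 and FT5, and in CS2 to CS4 and the CT samples of those numbers. Some FT and M samples also shared a mouse, which was not identified here. The labels do not say which samples were from separate mice, so the p-values measure the spread between these samples.

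miR-146a and miR-146b are known as feedback regulators of innate immune signaling. Transcription of the miR-146a gene is induced by NF-kB after Toll-like receptor or cytokine stimulation, and the mature miRNA represses the adaptors IRAK1 and TRAF6, which lie upstream of NF-kB. The family is abundant in leukocytes, and is also made in epithelium and endothelium. miR-146b is transcribed from a gene of its own, so the levels of these miRNAs can differ even though their targets are thought to be largely shared.

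The mature sequences are shown because the family is defined by its seed and because the probes had to tell apart RNAs that differ by little. The seed, bases 2 to 8, and the bases that differ are in capitals in the RefSeq sequences below (5′ to 3′).
miR-146a: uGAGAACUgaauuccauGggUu
miR-146b: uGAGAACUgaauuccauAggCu
Counted from 1 at the 5′ end, with the miR-146a base first, the differences were G18A and U21C. The other 20 of 22 bases were shared, including positions 1 to 17 without a break. The seed was found in only these 2 of the 1738 mature mouse miRNAs in the RefSeq table. In the mouse build GRCm38.p6, mature miR-146a-5p lies at chr11:43374435-43374456 on the minus strand, within the hairpin gene Mir146, which is in no other listed gene. Mature miR-146b-5p lies at chr19:46342790-46342811 on the plus strand, within Mir146b, and that gene lies inside the interval of the long noncoding RNA gene Gm36493. Nfkb2, which encodes an NF-kB subunit, lies 30362 bp from Mir146b on the same chromosome.

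The total count over all the mouse miRNAs ranged from 70164 to 598321 in tissue, from 100 ng of RNA, and from 18350 to 269005 in plasma, from 10 ng. Normalized counts, used below, are counts scaled to the geometric mean of the top 100 miRNAs by abundance in tissue, or of the top 30 in plasma. Tissue and plasma were scaled apart, so their levels are not compared with each other. A probe was called above background in a sample when its count exceeded the mean plus 2 SD of the 8 negative hybridization controls there. Markers of the labelled tissue were checked. All 5 epithelial miRNAs, the miR-200 family, were above background in every CT and FT sample, whereas 4 of 5 ciliated-cell miRNAs of the miR-34 and miR-449 family were above background in at least 1 CT sample and none in any M sample. In M, miR-200b was above background in all 5 samples and the other 4 epithelial miRNAs in 3 of 5, and the summed epithelial level ran from 242 to 42010 normalized counts, against 9285 to 11037 in CT.

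miR-146a was above background in every tissue sample. The normalized counts in CT were 223, 202, 152, 171 and 162 in CT1 to CT5, a mean of 182 ± 29.5 (SD, n = 5). In FT they were 618, 1073, 249, 260 and 274 in FT1 to FT5, a mean of 495 ± 358 (SD, n = 5). FT1 and FT2 stood well above the other FT samples, which lay just over the highest control. In M they were 1493, 970, 499, 602 and 748 in M1, M2, M3, M4 and M6, a mean of 862 ± 394 (SD, n = 5). Every M sample was above every CT sample, and the lowest M sample was 2.24-fold over the highest CT sample.

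**Figure D1:**
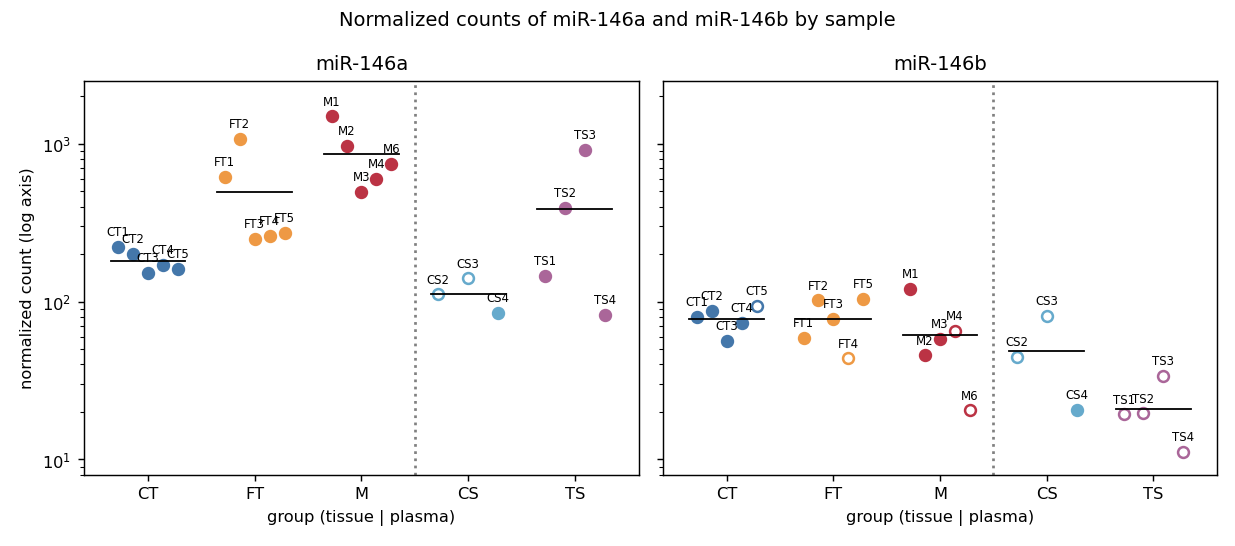
Normalized count (log axis) of miR-146a (left) and miR-146b (right) in each of the 22 samples, by group; each circle is a sample, an open circle marks a count not above the background of that sample, the black bar is the group mean, and the dotted line separates tissue from plasma, which were scaled apart. The 5 M samples sit between 499 and 1493 for miR-146a, above all CT samples, while the tissue groups overlap for miR-146b.

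By abundance, miR-146a was placed 65 to 77 among the mouse miRNAs in CT, 35 to 69 in FT and 30 to 50 in M. This order is counted within a sample, and so does not depend on the scaling.

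The family divided in the metastases. In M against CT, miR-146a was raised by a log2 fold change of 2.24 (SE 0.46, 4.73-fold), with an adjusted p of 0.0027 by edgeR's quasi-likelihood test with Benjamini-Hochberg adjustment over all mouse miRNAs. The two-sided exact permutation test of the mean log2 level gave p = 0.00794, the smallest that 5 samples against 5 allow. In the same comparison 82 miRNAs passed, 14.5% of those tested (10.2% higher and 4.24% lower), and groups without overlap and higher in M were found for 7.42%. miR-146a had the 39th highest log2 fold change of them all. The median over all miRNAs was 0.29, so miR-146a was 1.95 above it. The call held in 19 of 20 alternative settings and ended with scaling to the ligation controls (2.32, edgeR adjusted p = 0.116).

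miR-146b did not pass the test in any comparison. Its normalized counts were 79.8, 87.2, 56.4, 72.9 and 93.7 in CT1 to CT5, a mean of 78.0 ± 14.4 (SD, n = 5). They were 59.0, 102, 77.8, 43.7 and 104 in FT1 to FT5, a mean of 77.2 ± 26.2 (SD, n = 5), and 120, 45.6, 57.9, 65.3 and 20.5 in M1, M2, M3, M4 and M6, a mean of 61.9 ± 36.8 (SD, n = 5). The 3 groups overlapped, and M held both the highest and the lowest tissue sample. In M against CT the log2 fold change of miR-146b was -0.36 (SE 0.43, edgeR adjusted p = 0.574), with an interval of 2 SE from -1.22 to 0.51. The two-sided exact permutation p was 0.278.

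These levels of miR-146b lay close to the floor of the assay. It was above background in 4 of 5 CT samples, all but CT5, in 4 of 5 FT samples, all but FT4, and in 3 of 5 M samples, all but M4 and M6. The M1 count of 45 was only just over its background of 44.7. Its place by abundance was 91 to 106 in CT, 88 to 138 in FT and 100 to 189 in M.

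The induced tubes gave a smaller and less even difference. In FT against CT, miR-146a had a log2 fold change of 1.44 (SE 0.55), with an unadjusted p of 0.0147 and an adjusted p of 0.437 by edgeR's quasi-likelihood test, so it did not pass. All 5 FT samples were above all 5 CT samples, and the two-sided exact permutation p was 0.00794, the smallest allowed. The gap was narrow, since the lowest FT sample was 1.11-fold over the highest CT sample, and with TMM or ligation-control scaling 3 of the 5 FT samples were above all CT samples. Groups without overlap and higher in FT were found for 0.53% of all miRNAs, and 0.177%, a single miRNA, passed edgeR's test. The log2 fold change of miR-146b was -0.01 (SE 0.45, edgeR adjusted p = 0.999), with an interval of 2 SE from -0.91 to 0.88, and the two-sided exact permutation p was 0.825.

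The FT and M comparisons share the CT samples, so M was also compared with FT directly. The means of miR-146a stood in the order M, FT and CT, but M and FT overlapped, and 1 of 5 M samples was above all FT samples. The log2 fold change of miR-146a in M against FT was 0.80 (SE 0.77, edgeR adjusted p = 0.993; two-sided exact permutation p = 0.0952). That of miR-146b was -0.33 (SE 0.61, edgeR adjusted p = 0.993; two-sided exact permutation p = 0.373). In this comparison 1.59% of the miRNAs passed. A difference in miR-146a between tubes and metastases was therefore not shown, with an interval of 2 SE from -0.74 to 2.35.

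The Brca genotypes of the induced samples come from the study's sample list, and no test was made by genotype. The highest FT sample for miR-146a, at 1073 normalized counts, was the one with Brca1 -/-, and FT4, with Brca2 -/-, had 260. The Brca2 -/+ tubes FT1, FT3 and FT5 had 618, 249 and 274, and so lay on both sides of FT4. Among the metastases, the Brca2 -/- tumors M1 and M3 were the highest and the lowest, at 1493 and 499. M6, the ovarian metastatic tumor, had 748 and lay within the range of the peritoneal metastases.

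Because both probes were read in the same tube, the ratio of their counts needs no scaling. In CT there were 2.79, 2.32, 2.70, 2.35 and 1.73 counts of miR-146a for each count of miR-146b in CT1 to CT5. In FT the ratio was 10.5, 10.5, 3.19, 5.95 and 2.64 in FT1 to FT5, so that FT5 lay inside the CT range. In M it was 12.4, 21.3, 8.62, 9.22 and 36.5 in M1, M2, M3, M4 and M6, all above CT. The mean log2 ratio was 1.23 ± 0.28 in CT, 2.49 ± 0.93 in FT and 3.91 ± 0.88 in M (SD, n = 5 each).

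**Figure D2:**
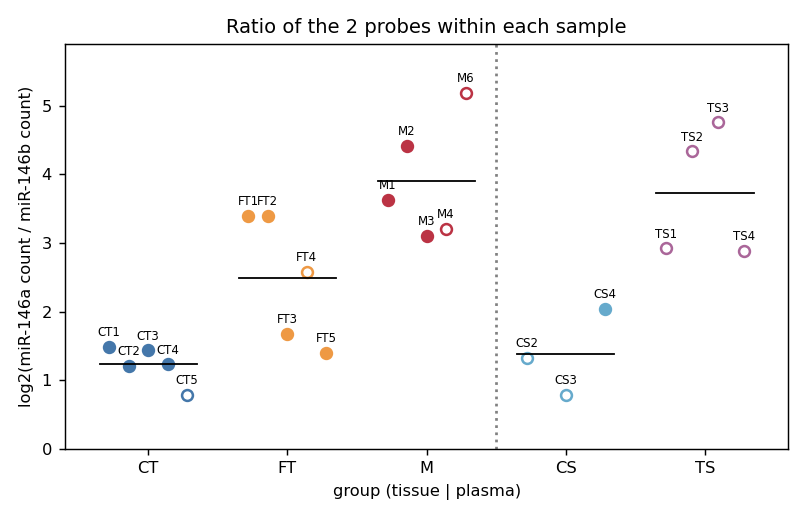
log2 of the miR-146a count over the miR-146b count within each sample, by group; circles are samples, an open circle marks a sample in which miR-146b was not above background, black bars are group means, and the dotted line separates tissue from plasma. All M samples lie above all CT samples, and all TS samples lie above all CS samples.

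The ratio was 6.41-fold higher in M than in CT (log2 difference 2.68, SE 0.41), and the two-sided exact permutation test gave p = 0.00794, or 0.0317 after Benjamini-Hochberg adjustment over the 4 comparisons of the ratio. The increase was therefore unequal between the family members. In FT against CT the log2 difference was 1.26 (SE 0.44, exact permutation p = 0.0238, adjusted 0.0476). This call was lost, at an adjusted exact p of 0.0571, when any CT sample or any of FT1, FT2, FT3 and FT4 was left out. In those settings the log2 difference stayed between 1.03 and 1.46. In M against FT the log2 difference was 1.42 (SE 0.57, exact permutation p = 0.0556, adjusted 0.0571). Both this 0.0571 and the one above equal the exact permutation p of the ratio in TS against CS. With all samples that p was the largest of the 4, and a Benjamini-Hochberg adjusted p cannot exceed the largest p. Where miR-146b was near background, part of its count was background and the ratio was read low. With the negative controls subtracted, the log2 difference was 3.32 in M against CT and 1.87 in M against FT.

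The ratio also limits how much of miR-146a the miR-146b probe could have read. The miR-146b count was 2.74% of the miR-146a count in M6 (30 against 1096 counts), the smallest share of any sample, so at most that share of miR-146a was counted as miR-146b there. The reverse share could not be bounded in this way.

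In plasma, miR-146a was above background in every TS sample and in 1 of 3 CS samples, CS4. Its counts in CS2, CS3 and CS4 were 35, 19 and 205, and its normalized counts 111, 140 and 85.0, a mean of 112 ± 27.7 (SD, n = 3). In TS1 to TS4 the counts were 106, 363, 487 and 162, and the normalized counts 146, 395, 914 and 82.6, a mean of 384 ± 378 (SD, n = 4). TS2 and TS3 were far above the controls, TS1 was just above them and TS4 was below all of them. The log2 fold change in TS against CS was 1.79 (SE 0.88), with an edgeR unadjusted p of 0.0415 and an adjusted p of 0.542. It rested in large part on TS3, without which it was 0.90 (edgeR adjusted p = 0.482). The two-sided exact permutation p was 0.286, in a design that cannot go below 0.0571. DESeq2 gave 2.14, with an adjusted p of 0.0298, and none of the other 15 settings passed.

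The position of TS4 depended on the scaling. The median log2 fold change of all miRNAs was -0.89 in TS against CS. Relative to it miR-146a was 2.68 higher, the 6th highest log2 fold change of all. This median was taken over all probes, including those of low count, and it moved with the setting. In the fit of the 95 miRNAs whose mean count reached 50 it was 0.32, with miR-146a at 1.79. It was -0.05 with TMM scaling (miR-146a 2.04) and 0.016 with DESeq2 (miR-146a 2.14). The margin of miR-146a over the median was smaller in these settings. With TMM or miR-425 scaling all 4 TS samples were above all CS samples, by 1.30-fold and 1.84-fold between the lowest TS and the highest CS sample. By abundance miR-146a was placed 61 to 73 in CS and 20 to 61 in TS, with TS4 at 61. Of all miRNAs, edgeR's test passed 0%, with 42 at an unadjusted p under 0.05 and 12 by DESeq2.

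miR-146b could hardly be read in plasma. Its counts were 14, 11 and 50 in CS2 to CS4 and 14, 18, 18 and 22 in TS1 to TS4, and only the CS4 count was above background. The normalized counts were 44.5, 81.3 and 20.7 in CS and 19.3, 19.6, 33.8 and 11.2 in TS. The log2 fold change was -1.16 (SE 0.91, edgeR adjusted p = 0.570; two-sided exact permutation p = 0.114), between values that were mostly background. The ratio of miR-146a to miR-146b was 2.50, 1.73 and 4.10 in CS and 7.57, 20.2, 27.1 and 7.36 in TS, without overlap. These are ratios of measured counts and not of the levels of the 2 miRNAs, because miR-146b was not above background in any TS sample, and neither member was in CS2 and CS3. The log2 difference between the groups was 2.34 (SE 0.60), at an exact permutation p of 0.0571, the smallest that 4 samples against 3 allow.

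The tissue and plasma changes were compared in one fit. The FT against CT log2 fold change minus that of TS against CS was -0.35 for miR-146a (SE 0.95, edgeR adjusted p = 0.881) and 1.13 for miR-146b (SE 0.81, edgeR adjusted p = 0.550), so no difference was shown. Within the mice sampled in both, miR-146a did not keep the same order. FT2, the highest tube at 1073, belonged to the mouse of TS1 at 146, whereas FT4 at 260 belonged to that of TS3, the highest plasma sample at 914. FT3 at 249 was matched by TS2 at 395, and FT5 at 274 by TS4 at 82.6. The tissue and plasma values were scaled apart, and only their orders can be set side by side.

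The NF-kB and Toll-like receptor pathway was followed through 13 other miRNAs known to be induced by it or to act on it. In M against CT, 10.2% of all miRNAs rose and 4.24% fell, a share that includes probes near background. In a fit of the 133 miRNAs whose mean count reached 50, 46 rose and 23 fell. Of the 13 listed, 4 were above background in no M sample. In the main fit 6 of the 13 rose, 1 fell and 6 did not pass, with a median log2 fold change of 0.79 against 0.29 over all miRNAs. The risers were miR-132, which endotoxin induces (3.52, SE 0.65, edgeR adjusted p = 0.00119), miR-21, a repressor of Pdcd4 (2.30, SE 0.51, edgeR adjusted p = 0.00472), let-7i, which represses Tlr4 (2.63, SE 0.48, edgeR adjusted p = 0.00119), miR-223 (3.59, SE 0.71, edgeR adjusted p = 0.00205), miR-210 (3.69, SE 0.50, edgeR adjusted p = 0.000107) and miR-9 (6.24, SE 1.65, edgeR adjusted p = 0.0158). miR-210 is best known as a hypoxia-induced miRNA and miR-223 as a myeloid one, so the list does not report on NF-kB alone. The miR-9 value rested on M4, with 4425 normalized counts against 29.4 or fewer in every other M sample, and without M4 it was 0.42 (edgeR adjusted p = 0.663). Its call was lost in 7 of 19 alternative settings, also without CT1 (6.11) or CT3 (6.18), and with limma (2.27), the methods' t-test (2.43), controls subtracted (3.22) or the replicate block (1.96). Ligation-control scaling ended the calls of miR-21 and let-7i, the block also that of miR-21, and the methods' t-test those of miR-132 and miR-223. The member that fell was miR-125b-5p (-1.85, SE 0.50, edgeR adjusted p = 0.0184), which targets TNF mRNA. Its call was lost in 6 of 20 alternative settings, among them without CT4.

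**Figure D3:**
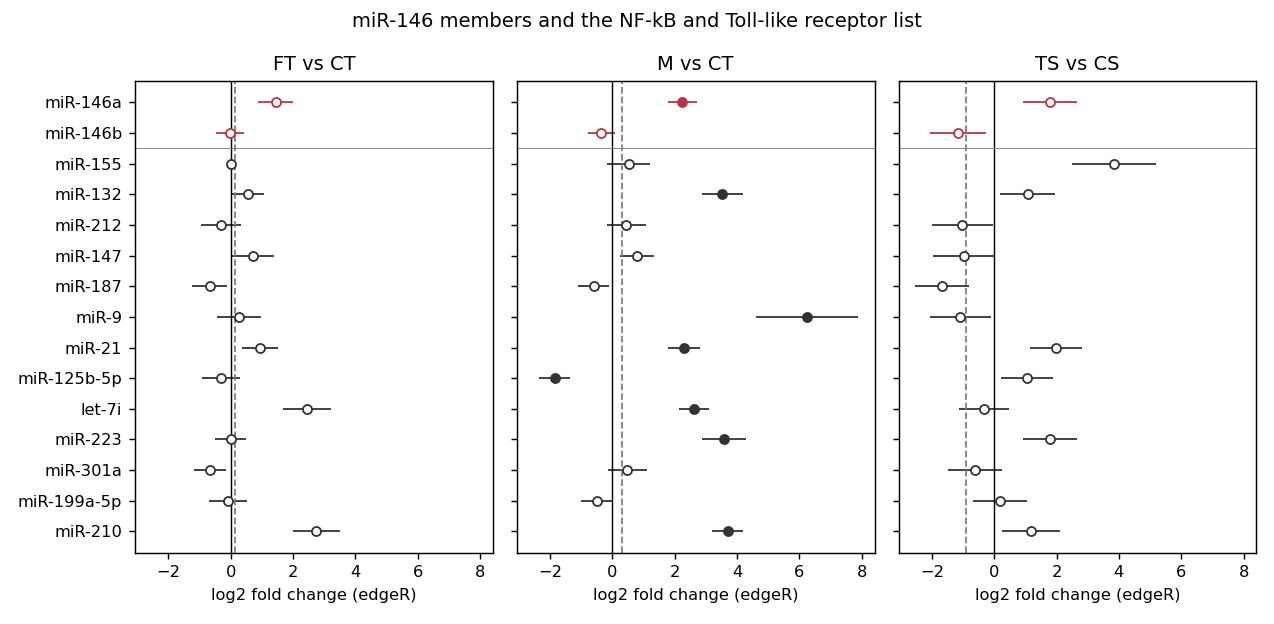
edgeR log2 fold change (x axis) of miR-146a, miR-146b and the 13 listed miRNAs in FT against CT, M against CT and TS against CS; bars are the SE, filled circles passed an adjusted p of 0.05, and the dashed line is the median of all mouse miRNAs. Filled circles appear only in M against CT, where miR-146a and 7 of the 13 passed.

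None of the 13 passed in FT against CT, where 2 had an unadjusted p under 0.05 in edgeR's test and the median log2 fold change was -0.000675 against 0.15 over all miRNAs. The values of let-7i and miR-210 were 2.44 (edgeR adjusted p = 0.200) and 2.74 (edgeR adjusted p = 0.106). In M against FT, 2 of the 13 passed. These were miR-9 (5.93, edgeR adjusted p = 0.0239), which was 0.14 without M4 and was lost in 11 of 19 alternative settings, and miR-223 (3.59, edgeR adjusted p = 0.031), whose call was lost in 12 of 20 alternative settings, among them without M3, FT1, FT3, FT4 or FT5. In TS against CS none of the 13 passed, with 3 at an unadjusted p under 0.05 in edgeR's test. miR-155, the miRNA most often paired with miR-146a as an opposing product of Toll-like receptor signaling, was above background in no tissue sample. In plasma it reached 115 normalized counts in TS3, the plasma sample with the most miR-146a, and was above background in no other plasma sample. The normalized counts of 0.41 to 7.39 in those samples are therefore not a range of levels.

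Markers of other cell types that can express the family differed between the groups as well. The summed normalized count of 5 leukocyte miRNAs (miR-150, miR-223, miR-155 and both arms of miR-142) was 593 to 1164 in CT, 785 to 1336 in FT and 967 to 6301 in M. In M against CT, 1 of the 5 rose, miR-223, where 10.2% of all miRNAs rose. The log2 fold changes of miR-150 and of miR-142-3p and miR-142-5p were 0.87, 0.93 and 1.24, without passing, and miR-155 was not above background. The order of samples was not that of miR-146a. M3 had the highest leukocyte sum and the least miR-146a of the metastases, whereas M4, with a sum of 967 inside the CT range, had 602 normalized counts of miR-146a, above every CT sample. The order of the sum in M rested in large part on miR-223 alone. It was 3739 of the 6301 in M3, 1885 of 2723 in M2 and 1342 of 1870 in M6. In M1 it was 615 of 2654 and in M4 128 of 967. In plasma the leukocyte sum was 704 to 2409 in CS and 537 to 2326 in TS, with TS3 the highest of TS and TS4 the lowest, as for miR-146a. That order was not particular to leukocyte miRNAs. miR-146b, miR-212 and miR-187, above background in no TS sample, were also highest in TS3 and lowest in TS4 among TS. The geometric mean used for scaling was lowest in TS3 (515) and highest in TS4 (1895) among TS. The leukocyte list did not move together in plasma. In TS against CS the log2 fold change was 1.78 for miR-223 (edgeR adjusted p = 0.542), -1.61 for miR-142-3p (edgeR adjusted p = 0.542) and -1.48 for miR-142-5p (edgeR adjusted p = 0.570). The median was -0.89 over all miRNAs, and 0.32 in the fit of the 95 whose mean count reached 50. The normalized counts of miR-142-3p were 65.7 to 158 in TS against 228 to 426 in CS. For miR-142-5p the groups overlapped, at 87.7 to 421 in TS against 63.4 to 1470 in CS.

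**Figure D4:**
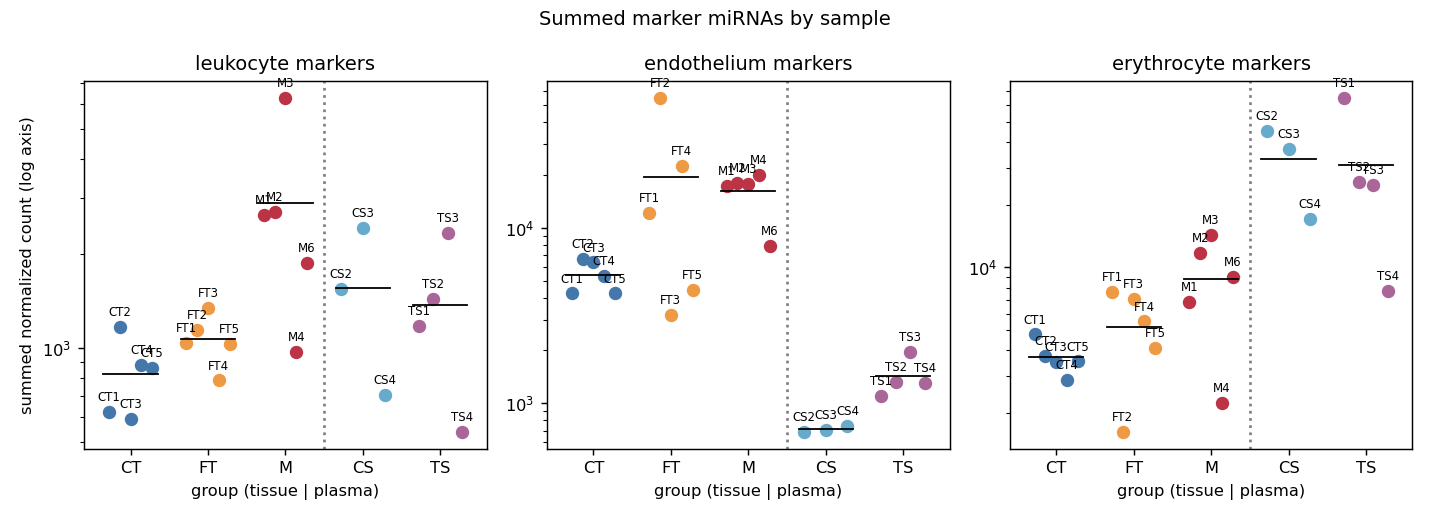
Summed normalized count (log axis) of the leukocyte, endothelial and erythrocyte marker miRNAs in each sample, by group; circles are samples, black bars are group means, and the dotted line separates tissue from plasma, which were scaled apart. The leukocyte sum is highest in M3 at 6301 and the endothelial sum in FT2 at 55041.

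The sum of the endothelial miR-126-3p and miR-126-5p was 4224 to 6683 in CT, 3205 to 55041 in FT and 7887 to 19897 in M. FT2, FT4 and FT1 had the highest sums of FT, at 55041, 22606 and 12127. FT2 and FT1 also had the most miR-146a of FT, but FT4 had 260 normalized counts, close to the lowest, FT3 at 249. let-7i and miR-210 were likewise highest in FT2, then FT4, then FT1 among FT, so this order was not particular to endothelial miRNAs. The endothelial sum was almost all miR-126-3p, and the arms went apart, with miR-126-5p at 52.1 normalized counts in FT2, the lowest of FT. In FT against CT the log2 fold changes were 1.92 for miR-126-3p (edgeR adjusted p = 0.471) and -0.26 for miR-126-5p (edgeR adjusted p = 0.857). miR-126-3p rose in M against CT (1.66, SE 0.43, edgeR adjusted p = 0.0155), a call lost in 5 of 20 alternative settings, among them without CT1 (1.58) or CT4 (1.66), while miR-126-5p did not pass (-0.83, edgeR adjusted p = 0.274). The erythrocyte sum (miR-451, miR-144, miR-486 and miR-16) was 2881 to 4771 in CT, 1623 to 7603 in FT and 2233 to 14358 in M. Of its members miR-486 rose in M against CT (3.27, SE 0.51, edgeR adjusted p = 0.000254). miR-486 was above background in 5 of 5 M but 0 of 5 CT samples, so its fold change was taken from the floor. The other 3 did not pass, with miR-451 just short (2.19, edgeR adjusted p = 0.05004). In plasma the erythrocyte sum was 17081 to 44989 in CS and 7721 to 65025 in TS. Of the 4 smooth muscle and stromal miRNAs, miR-143 (-2.52, edgeR adjusted p = 0.00119) and miR-145 (-2.005, edgeR adjusted p = 0.0419) fell in M against CT, and none passed in FT. The liver miRNA miR-122 rose in FT (4.74, edgeR adjusted p = 0.0201), the one miRNA that passed there, and in M (2.62, edgeR adjusted p = 0.00119), and was above background in 3 of 5 FT, 2 of 5 M and 0 of 5 CT samples. In FT it ran from 18.5 to 1269 normalized counts, a mean of 304 ± 543 (SD, n = 5). Its call in FT was lost with miR-425 or ligation-control scaling, limma, the methods' t-test, a minimum mean count of 50 or the block. Leaving out CT2 or CT3 also ended it. The part of these cell types in the levels of miR-146a was not tested.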

How the data were processed

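miRNAs of mouse tissue and plasma were read with the nCounter miRNA assay v1.5, in which each miRNA is ligated to a tag and counted by barcode; 100 ng was used from tissue and 10 ng from plasma, per the labels. The authors deposited raw counts per probe, whole numbers of at least 1, without background subtraction. Samples M5 and CS1 were not analysed here. Engineered alleles other than Brca1 and Brca2 are not reported here. Of the 626 probes, 566 were mouse miRNAs and 60 were controls and other probes. All columns were matched to samples (0 unmatched).

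As in the study's methods, each sample was scaled to the geometric mean of its top 100 (tissue) or top 30 (plasma) miRNAs, taken by mean count over the samples, times the mean of that quantity. Groups were compared with edgeR 4.0.16 (glmQLFit and glmQLFTest, R 4.3.3) on all 566 miRNAs, with that geometric mean as library size, only the compared groups in the fit, and Benjamini-Hochberg adjustment at 0.05. Exact two-sided permutation tests (scipy 1.17.1) were made on log2 normalized counts and log2 count ratios. The scripts were tested on simulated data. Precision was limited by counting error in low probes and by 3 to 5 samples a group.

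The members and the miRNA lists were chosen with earlier results of these data known. Named miRNAs were both members, every listed miRNA past the threshold, the blood and endothelial markers, and the 3 miRNAs closest to each member in profile; miR-155, the smooth muscle and liver miRNAs and the values of let-7i and miR-210 in FT were named after their values were seen. Alternatives were TMM, miR-425 and ligation-control scaling, DESeq2 1.42.0, limma 3.58.1 on log2(normalized count + 1), the methods' t-test, a minimum mean count of 50, subtraction of the mean negative control, a replicate block, all tissue groups in one fit, log2(count + 10) for the ratio, and each sample left out. Those for the listed miRNAs, and TMM for the closest profiles, were chosen after seeing the data.

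Sequences and gene positions are from RefSeq (GRCm38.p6), matched by miRNA name; both members matched.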

Additional observations from a re-analysis of the deposited data

How the results depend on the processing

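miR-146a in M against CT stayed higher in all 20 alternatives and past the threshold in 19, with log2 fold changes of 2.10 to 2.59 over the other settings and 1.95 to 2.39 with a sample left out; ligation-control scaling gave 2.32 (edgeR adjusted p = 0.116). In FT against CT it stayed higher and did not pass in any of 20 (0.95 to 2.36). In TS against CS it stayed higher in all 16 (0.90 to 2.14), and passed only with DESeq2 (2.14); the lowest was without TS3. In M against FT it was -0.040 with ligation-control scaling and 0.51 to 1.30 otherwise. The tissue minus plasma difference of miR-146a was 0.51 with ligation-control scaling and -0.85 to 0.54 with a sample left out, the highest without TS3. The direction of miR-146b was not settled. In FT against CT it was 0.37 with miR-425 scaling, 0.55 with ligation-control scaling, 0.094 with DESeq2 and -0.15 to 0.13 with a sample left out, above 0 without CT2 (0.032), CT5 (0.059), FT1 (0.075) or FT4 (0.13). It was 0.056 in M against CT with miR-425 scaling and 0.019 in TS against CS with ligation-control scaling, and never passed. The ratio in FT against CT was 1.03 to 1.53 with a sample left out, and in M against FT 1.87 with controls subtracted (exact permutation p, adjusted, 0.0159).

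The number of miRNAs past the threshold in FT against CT, 1 as reported, was 2 with TMM and 9 with DESeq2. It was 0 with miR-425 or ligation-control scaling, limma, the methods' t-test, a minimum mean count of 50 and the block. In M against CT, 82 became 160 with TMM, 48 with ligation-control scaling, 184 with DESeq2, 32 with the methods' t-test and 52 with all tissue groups in one fit, and the share of them that were higher, 70.7%, became 52.5% with TMM, 87.5% with miR-425 scaling, 81.2% with ligation-control scaling, 44.9% with controls subtracted, 55.4% with DESeq2, 56.2% with the methods' t-test and 80.8% with all tissue groups in one fit. In M against FT, 9 became 2 with miR-425 scaling, 39 with DESeq2, 5 with limma or controls subtracted, 0 with the methods' t-test and 23 with all tissue groups in one fit, and in TS against CS 0 became 12 with DESeq2. With a sample left out the counts were 0 to 12, 50 to 101, 4 to 33 and 0 in these comparisons. Changes of over 1.5 times came in FT against CT without CT2 or CT3 (0), FT1 (2), FT3 (12) or FT5 (10), in M against CT without CT1 (51), CT3 (52) or CT4 (50), and in M against FT without FT1 or FT4 (5), FT2 (33), FT3 (4), M4 (18) or M6 (15). The cause was not tested.

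With the replicate number as a block, miR-146b in M against FT was 0.010, and the counts of passing miRNAs became 0 in FT against CT, 2 in M against FT and 90 in TS against CS; no call for either member changed. The numbers did not pair the tissue samples: deviations of same-numbered samples correlated at -0.29 to 0.25 in FT and CT, -0.21 to 0.00 in M and CT and -0.38 to 0.27 in M and FT. In TS and CS they correlated at 0.04 to 0.33, and all 3 pairs correlated best with their own number. What same-numbered plasma samples share was not tested. A minimum mean count of 50 left no value for miR-146b in plasma.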

Other observations

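The profile over the 15 tissue samples closest to that of miR-146a, among 140 miRNAs whose mean count reached 50, was that of miR-93, with a root mean square difference of 0.64 in centred log2 normalized counts, followed by miR-378 (0.70) and miR-181a (0.73). miR-146b was 57th (1.29), and the median of all was 1.46. miR-93 was 28.7 to 53.7 normalized counts in CT and 133 to 262 in M. miR-181a was 393 to 818 in CT, 285 to 4264 in FT and 978 to 3908 in M, with its highest FT sample, FT2, the same as for miR-146a. The closest to miR-146b in tissue were miR-1961 (0.41), miR-1186 (0.50) and miR-125a-3p (0.51).

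Over the 7 plasma samples, the profiles closest to that of miR-146a among 94 miRNAs were those of miR-342-3p (0.28), miR-23a (0.34) and miR-223 (0.40), against a median of 1.09. miR-223 and miR-342-3p are abundant in leukocytes, but so are miR-142-3p and miR-142-5p, whose log2 fold changes in TS against CS were -1.61 and -1.48. Neither of these passed, and TS and CS overlapped for miR-142-5p. miR-342-3p was 92.0 to 111 normalized counts in CS, and 171, 310, 1292 and 80.1 in TS1 to TS4, with TS3 highest and TS4 lowest, as for miR-146a. Probes above background in no TS sample, such as miR-146b and miR-187, also had TS3 highest and TS4 lowest among TS. In tissue miR-342-3p did not follow this order, since FT2 had the least of all tissue samples (49.7). The same 3 miRNAs were closest to each member with TMM scaling. These profiles share samples and scaling, and were given no test.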
